A study of Caenorhabditis elegans with 12 samples.

Results

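Sperm protein genes were taken from the table by name: every gene whose symbol is msp, ssp, spe, sss or nspd followed by a number, together with gsp-3 and gsp-4. The name rule found 29 of the 12595 genes measured, namely 9 msp, 4 ssp, 9 spe, 2 sss and 3 nspd genes and the 2 gsp genes. RNA was measured by poly(A)-enriched, 50-base single-end sequencing of whole Caenorhabditis elegans hermaphrodites, each sample pooling many animals, all grown at 25°C and collected at day 1 of adulthood. The 12 libraries form 4 groups of 3 biological replicates. They are glp-1(bn18ts) animals fed skn-1 RNAi bacteria, glp-1(bn18ts) animals fed the empty L4440 vector, N2 wild-type (WT) animals fed skn-1 RNAi bacteria and N2 animals fed the empty L4440 vector. The glp-1(bn18ts) allele, written glp-1(ts) from here on, is a temperature-sensitive Notch receptor mutation that blocks germline stem cell proliferation at 25°C, and skn-1 encodes a stress-response transcription factor. Feeding started at the egg stage according to the labels and after L1 arrest according to the study's methods, and feeding RNAi lowers a transcript without removing it. WT animals kept their germline and eggs, which glp-1(ts) animals largely lack, so a change in the number of cells of a type cannot be told apart from a change in RNA per cell.

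A C. elegans hermaphrodite makes sperm first, during late larval life, and then switches its germline to oocytes, so an adult carries stored sperm while its gonad produces oocytes. Sperm transcription largely ends before the spermatids mature, and the cells rely on proteins made earlier. The major sperm proteins, encoded by the msp genes, assemble into the filaments that drive the crawling of the pseudopod, and MSP released from sperm is also the signal that triggers oocyte maturation and contraction of the gonadal sheath. The ssp and sss symbols stand for sperm-specific families, nspd for a family of small nematode-specific peptides, and gsp-3 and gsp-4 for sperm-enriched catalytic subunits of protein phosphatase 1. The spe genes are named for defective spermatogenesis mutants and code for proteins of many kinds, some of which also act outside sperm. In strong glp-1 loss of function the few germ cells present leave mitosis early and are known to differentiate as sperm.

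The msp genes are a multigene family of near-identical copies. All 9 measured msp genes are annotated as single exons of 384 bases in the Ensembl annotation of WBcel235. Their genes lie at 2 places. The 6 members msp-31, msp-33, msp-40, msp-45, msp-49 and msp-50 are on chromosome II between 4825414 and 5200180, and msp-36, msp-76 and msp-77 are on chromosome IV. The annotation holds 31 protein-coding msp genes. The deposited table holds 9 of them (29.0%), beside 60.5% of all protein-coding genes, and the others are absent from it. How reads that match several msp copies were counted is not given in the sources used here, so every msp value is uncertain as a value of that single gene, and 9 msp genes are not 9 separate measurements. The same holds to a lesser extent for gsp-3 and gsp-4, which are close paralogs.

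Position was shared beyond the msp family. Between 9689015 and 10269187 on chromosome IV, a span of 580.2 kb, lie 8 members of 5 families: msp-36, msp-76, msp-77, nspd-2, nspd-7, spe-29, ssp-10 and sss-1. The genes msp-77 and sss-1 are 882 bases apart. Chromosomes I and IV held 9 members each (31.0% of members each, against 16.4% and 16.3% of all annotated genes in the table), and the X chromosome held 0 members although 14.5% of the genes in the table lie there. Exons of 2 members overlap exons of a neighbour on the opposite strand, spe-29 with gon-1 and spe-5 with ift-20. Whether the authors counted reads by strand is not given in the sources used here, so reads of these pairs cannot be told apart.

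Levels are given as log2 CPM, counts scaled to library size on a log2 scale after quantile normalization by the authors, so 0 stands for 1 CPM. Most members were low. In each library 7 to 21 of the 29 members were below 1 CPM, and only 7 to 15 distinct values lie below that level in a library, which means that members near 1 CPM rest on few reads. The lowest value of a library, −4.35 to −3.29 log2 CPM, is shared by 68 to 246 genes. It was reached by 0 members in each glp-1(ts) library, against 0 to 5 members in each WT library. The numbers of reads per library are unknown from these values, so no counting interval is given. The deposited table keeps genes with at least 1 CPM in at least 2 libraries. Of the 29 members, 10 reached 1 CPM in at least 2 libraries of both strains, 16 only in glp-1(ts), 2 only in WT (spe-44 and spe-5) and 1 (msp-77) in fewer than 2 libraries of either strain in the normalized values. A low gene that enters the table only through the strain where it is high had to differ between strains, so counts over the 29 members describe them and give no support to a direction. The same limit holds for the tests of the 16 single genes that reached 1 CPM in at least 2 libraries of glp-1(ts) only. They are gsp-3, gsp-4, msp-31, msp-33, msp-40, msp-45, msp-49, msp-50 and msp-76, and spe-4, spe-11, spe-29, ssp-16, ssp-35, sss-1 and sss-2. It holds as well for spe-44 and spe-5, which reached 1 CPM in at least 2 libraries of WT only.

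The transcript targeted by RNAi was lower in WT only. There skn-1 was at 4.56, 5.03 and 4.37 log2 CPM on skn-1 RNAi food, against 6.38, 6.50 and 6.10 on vector (log2 fold change −1.67, adjusted p = 0.00782, limma with Benjamini-Hochberg adjustment). In glp-1(ts), skn-1 was at 5.73, 6.60 and 6.08 in the libraries labelled skn-1 RNAi, against 6.07, 6.17 and 6.23 on vector (log2 fold change −0.02, adjusted p = 0.991, same test). These libraries are therefore named by their label. The 23 germline markers (such as gld-1) were all called lower in glp-1(ts) on both foods (limma, adjusted p under 0.05). Of all genes 38.1% were so on skn-1 RNAi food and 38.0% on vector. Marker medians were −3.52 on skn-1 RNAi food and −2.93 on vector, beside 0.32 and 0.27 over all genes.

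**Figure D1:**
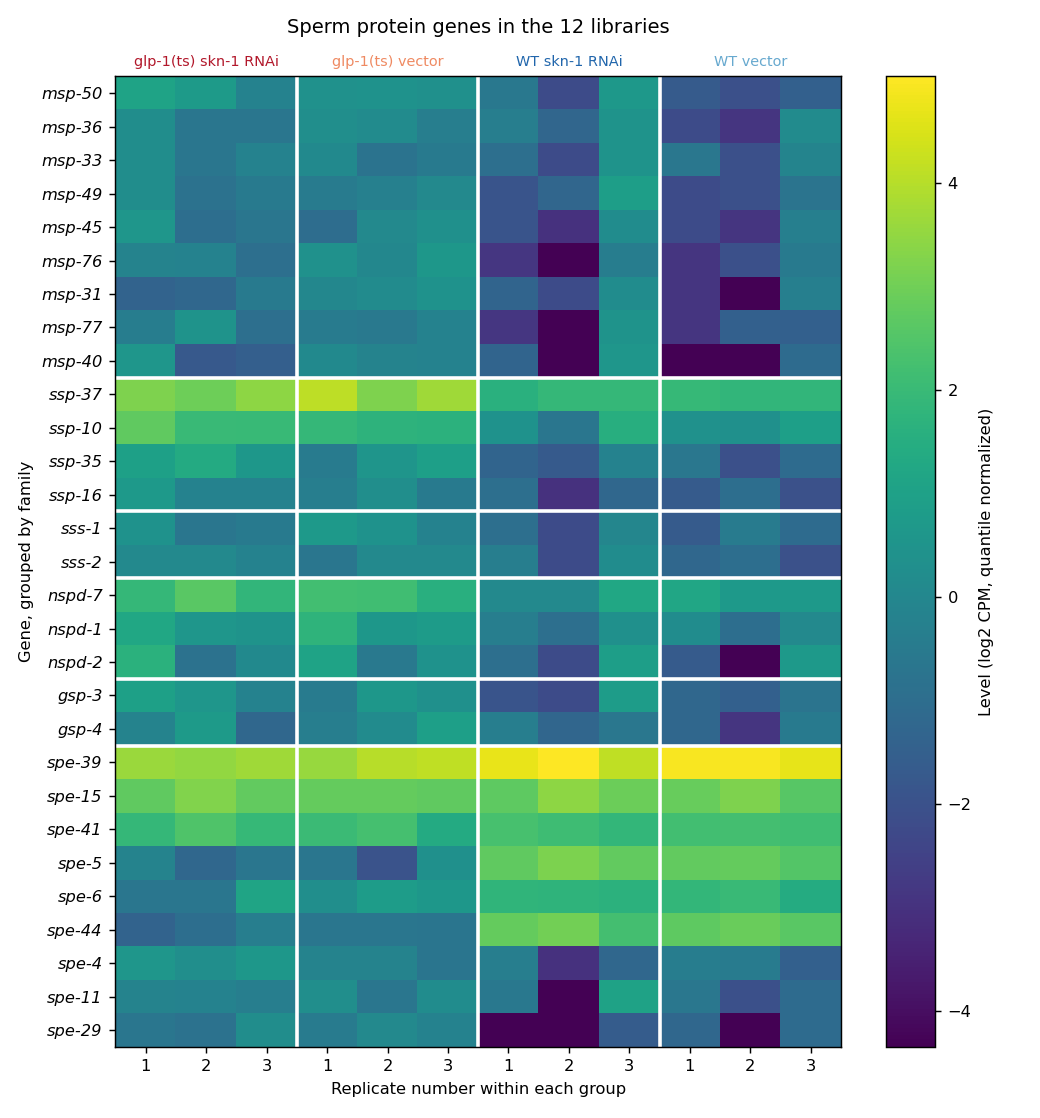
Level of each of the 29 sperm protein genes (rows, grouped by family) in each of the 12 libraries (columns, 3 replicates in each of 4 groups), as log2 CPM on the colour scale. The msp, ssp, sss, nspd and gsp rows are brighter in the glp-1(ts) columns, spe-5 and spe-44 are brighter in the WT columns, and replicate 3 of WT on skn-1 RNAi food looks like the glp-1(ts) columns in the msp rows.

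The first comparison asked which sperm protein genes differed between glp-1(ts) and WT animals on vector. In glp-1(ts), 12 of 29 members (41.4%) were called higher at an adjusted p under 0.05, a share near the 39.4% of all genes tested. Only 4 members (13.8%) were called lower, beside 38.0% of all genes. The groups did not overlap for 17 members that were higher (41.4% of all genes did so) and for 4 that were lower (39.7% of all genes). The median log2 fold change was 1.35 over the 29 members and 0.27 over all genes. All 20 members outside the spe family had a positive log2 fold change, from 0.53 to 3.17, and the 12 called higher were among them. Over all 29 members 23 were positive, beside 6797 of the 12595 genes. Many of the 20 reached 1 CPM in at least 2 libraries of glp-1(ts) only, so the filter bore on their sign. The median over these 20 members was 1.57 on vector and 1.14 on skn-1 RNAi food. The 12 somatic markers had medians of 1.60 on vector and 1.72 on skn-1 RNAi food, with 12 positive and 11 called on each food, and the part of this in the members' values was not tested. All 4 members called lower were spe genes.

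Among the msp genes, msp-40, msp-31, msp-76, msp-50 and msp-36 were called higher in glp-1(ts) on vector, 5 of 9 beside 39.4% of all genes. For msp-50, the libraries were at 0.42, 0.45 and 0.35 log2 CPM in glp-1(ts), against −1.65, −2.05 and −1.46 in WT. For msp-31, they were at −0.02, 0.20 and 0.45 in glp-1(ts), against −2.89, −4.35 and −0.30 in WT. The glp-1(ts) libraries were close together and above all WT libraries for both genes, while the WT libraries of msp-31 spread over the range from the lowest value of the library to nearly 1 CPM. The log2 fold change was 2.12 ± 0.61 for msp-50 (SE, adjusted p = 0.00621) and 2.72 ± 0.89 for msp-31 (SE, adjusted p = 0.0125, limma with Benjamini-Hochberg adjustment for both).

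The largest estimate among the members was that of msp-40, at 0.10, −0.15 and −0.19 log2 CPM in glp-1(ts), against −4.35, −4.35 and −1.05 in WT. Replicates 1 and 2 of WT were at the lowest value of their library, so the log2 fold change of 3.17 ± 1.17 (SE, adjusted p = 0.0241, limma with Benjamini-Hochberg adjustment) depends on how far below the other genes that value is placed. The gene msp-76 was at 0.42, −0.02 and 0.63 in glp-1(ts), against −2.89, −2.05 and −0.47 in WT (log2 fold change 2.14, adjusted p = 0.0385, same test). For msp-36, replicate 3 of WT at 0.19 lay inside the glp-1(ts) range of −0.34 to 0.30, and the gene was called at a log2 fold change of 1.69 (adjusted p = 0.0436, limma with Benjamini-Hochberg adjustment). The other msp genes, msp-33, msp-45, msp-49 and msp-77, had log2 fold changes of 0.53 to 1.61 that did not pass the test. Calls within the family turned on single WT libraries: without replicate 2 of WT on vector, msp-50 was the only msp gene still called.

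Summed over the 9 genes, msp levels on vector were 8.99, 8.70 and 9.74 CPM in glp-1(ts), against 2.06, 1.70 and 6.21 CPM in WT. The groups did not overlap, and replicate 3 of WT lay between the glp-1(ts) libraries and the other WT libraries. Among animals fed skn-1 RNAi bacteria the sums were 10.8, 7.04 and 5.86 CPM in glp-1(ts), against 3.59, 1.77 and 12.2 CPM in WT. There the groups overlapped, since replicate 3 of WT held the highest msp sum of all 12 libraries. Per kilobase of exon, the group means of single msp genes on vector ran from 1.99 to 3.45 CPM per kb in glp-1(ts), against 0.504 to 1.57 CPM per kb in WT.

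**Figure D2:**
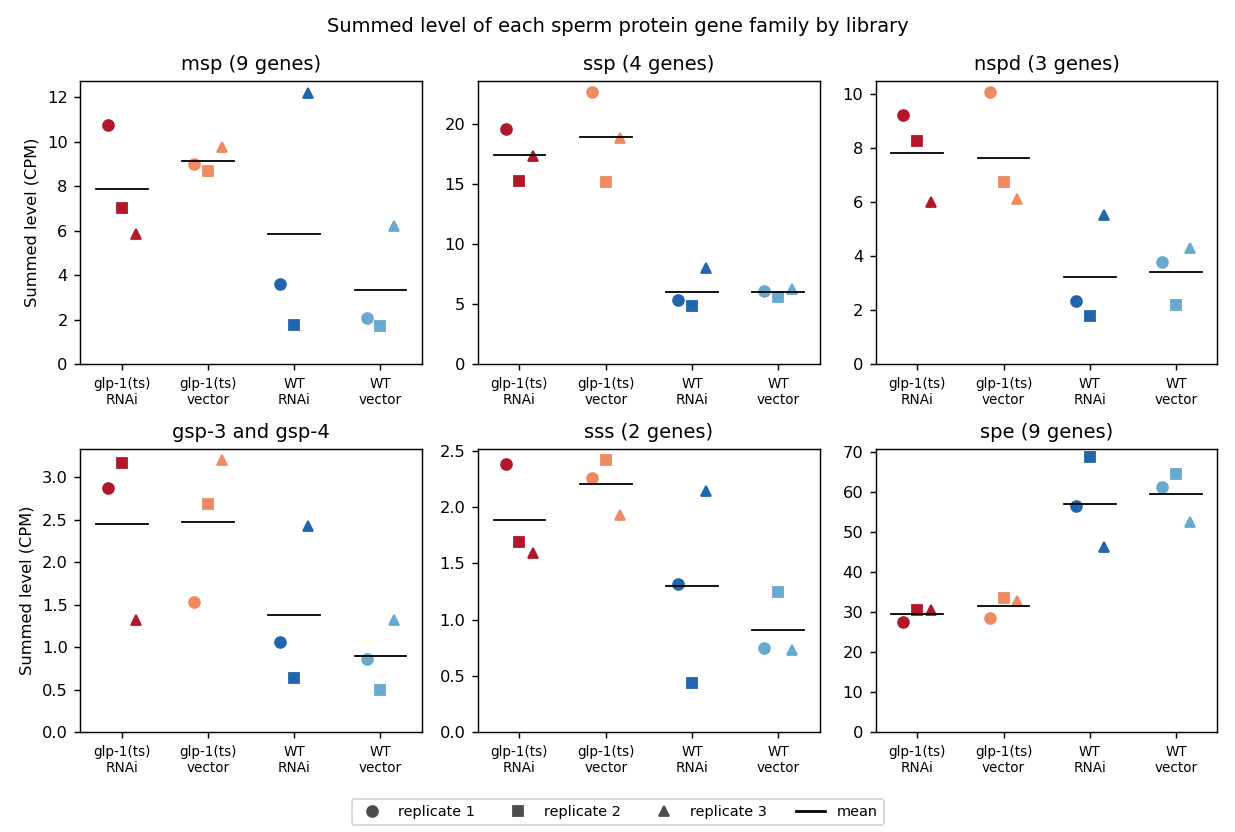
Summed level in CPM (vertical axis, from 0) of each family in the 4 groups, with a point for each replicate and a line at the group mean of 3. Every ssp sum of a glp-1(ts) library, 15.2 to 22.6 CPM, is above every ssp sum of a WT library, while the msp sum of WT replicate 3 on skn-1 RNAi food, 12.2 CPM, is above every glp-1(ts) point.

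The ssp genes, short genes of 324 to 451 exonic bases, were called higher in glp-1(ts) for 4 of 4 members on skn-1 RNAi food, beside 41.7% of all genes, and 3 of 4 on vector, beside 39.4%. The highest of them per kilobase, ssp-37, averaged 29.2 CPM per kb in glp-1(ts) on vector, against 8.06 CPM per kb in WT. Its libraries were at 4.12, 3.20 and 3.70 log2 CPM in glp-1(ts) on that food, against 1.93, 1.83 and 1.83 in WT. With skn-1 RNAi food it was at 3.21, 2.96 and 3.45 in glp-1(ts), against 1.61, 1.90 and 1.91 in WT. All 6 glp-1(ts) libraries were above all 6 WT libraries, and the WT libraries were nearly equal. Its log2 fold change was 1.81 ± 0.23 on vector (SE, 3.51-fold, adjusted p = 8.83e-06) and 1.40 ± 0.23 on skn-1 RNAi food (SE, 2.64-fold, adjusted p = 8.36e-05, limma with Benjamini-Hochberg adjustment). It was called in every alternative that was run at an adjusted p under 0.05.

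On vector, ssp-10 was at 1.91, 1.72 and 1.69 log2 CPM in glp-1(ts), against 0.41, 0.35 and 0.96 in WT. With skn-1 RNAi food its libraries were at 2.74, 2.00 and 1.99 in glp-1(ts), against 0.43, −0.66 and 1.55 in WT. The groups did not overlap on either food, and the WT libraries were more spread on skn-1 RNAi food. The log2 fold changes were 1.20 on vector (adjusted p = 0.0246) and 1.80 on skn-1 RNAi food (adjusted p = 0.00208, limma with Benjamini-Hochberg adjustment). The gene ssp-35 was also called on both foods, with log2 fold changes of 1.59 on vector (adjusted p = 0.0161) and 2.05 on skn-1 RNAi food (adjusted p = 0.0033, same test). It was at or above 1 CPM in 5 glp-1(ts) libraries and in 0 WT libraries, so it is in the table through glp-1(ts) alone and these tests are no independent support for its direction. For ssp-16 the log2 fold change was 1.35 on vector, where the adjusted p was 0.0557, and 1.84 on skn-1 RNAi food, where it was 0.0125 (limma, Benjamini-Hochberg).

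The sss genes were near or below 1 CPM, and on vector neither overlapped between the strains. There sss-1 was at 0.70, 0.45 and −0.19 log2 CPM in glp-1(ts), against −1.65, −0.45 and −1.05 in WT. It was called higher (log2 fold change 1.37, adjusted p = 0.0453, limma with Benjamini-Hochberg adjustment), and only 11 of 21 alternatives kept that call. It was lost when any of these libraries was left out: replicate 1 or 3 of WT on vector, replicate 1 or 2 of glp-1(ts) on vector, replicate 1 of WT on skn-1 RNAi food, or replicate 2 or 3 of glp-1(ts) on skn-1 RNAi food. Its log2 fold change on skn-1 RNAi food was 0.82 and was not called. The locus sss-2, annotated as a pseudogene, had log2 fold changes of 1.22 on vector and 0.76 on skn-1 RNAi food, and neither passed the test.

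The nspd genes are single exons of 213 bases. Their sequence identity was not computed, so how far reads can tell them apart is not known here. The highest of them, nspd-7, was at 2.18, 2.17 and 1.58 log2 CPM in glp-1(ts) on vector, against 1.20, 0.72 and 0.71 in WT. Animals fed skn-1 RNAi bacteria had 1.91, 2.63 and 1.82 log2 CPM of it in glp-1(ts), against 0.06, 0.06 and 1.25 in WT. The groups were separate on both foods, and the log2 fold changes were 1.10 on vector (adjusted p = 0.0133) and 1.67 on skn-1 RNAi food (adjusted p = 0.000801, limma with Benjamini-Hochberg adjustment). The gene nspd-1 was called on both foods as well, with log2 fold changes of 1.29 on vector (adjusted p = 0.0207) and 1.06 on skn-1 RNAi food (adjusted p = 0.0488, same test). For nspd-2 the WT libraries on vector spread over −1.65, −4.35 and 0.71, and its log2 fold change of 2.09 was not called (adjusted p = 0.0973). Per kilobase of exon, nspd-7 on vector averaged 18.9 CPM per kb in glp-1(ts), against 8.73 CPM per kb in WT.

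The protein phosphatase 1 genes gsp-3 and gsp-4, which act in sperm meiosis and motility, were both near 1 CPM. On vector, gsp-4 was at −0.32, 0.20 and 0.94 log2 CPM in glp-1(ts), against −1.21, −2.89 and −0.47 in WT. For gsp-3 the libraries were at −0.45, 0.63 and 0.35 in glp-1(ts), against −1.21, −1.46 and −0.74 in WT. Neither gene overlapped between the strains. Only gsp-4 was called (log2 fold change 1.80, adjusted p = 0.0245), while gsp-3 had 1.31 with an adjusted p of 0.0973 (limma, Benjamini-Hochberg), and a difference between these paralogs was not tested. On skn-1 RNAi food gsp-3 had 1.55 and gsp-4 had 0.53, neither called. The broadly expressed phosphatase genes gsp-1 and gsp-2 had group means of 6.31 to 7.69 log2 CPM. Of them gsp-2 fell in glp-1(ts), by 0.96 on vector, whereas gsp-1 differed by −0.10 and was not called.

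The spe genes had log2 fold changes of both signs. On vector 4 of 9 fell (44.4%), a share near the 38.0% of all genes, and 0 were called higher, beside 39.4% of all genes, with a median log2 fold change of −0.29. The steepest changes were those of spe-5 and spe-44. The gene spe-44, a transcription factor gene required for the spermatogenesis program, was at −0.66, −0.66 and −0.71 log2 CPM in glp-1(ts) on vector, against 2.69, 2.91 and 2.64 in WT. On skn-1 RNAi food it was at −1.34, −0.96 and −0.32 in glp-1(ts), against 2.82, 3.03 and 2.22 in WT. All glp-1(ts) libraries were below 1 CPM and all WT libraries above 4 CPM on the linear scale. The gene is thus in the table through WT alone, and its tests give no independent support to its direction. The log2 fold change was −3.42 ± 0.32 on vector (SE, adjusted p = 5.12e-07) and −3.56 ± 0.32 on skn-1 RNAi food (SE, adjusted p = 2.32e-07, limma with Benjamini-Hochberg adjustment).

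For spe-5, which encodes a B subunit of the vacuolar proton pump, the libraries on vector were at −0.66, −1.96 and 0.35 log2 CPM in glp-1(ts), against 2.79, 2.82 and 2.53 in WT. The skn-1 RNAi food libraries were at −0.15, −1.21 and −0.66 in glp-1(ts), against 2.74, 3.20 and 2.78 in WT. Every WT library was above every glp-1(ts) library. The gene reached 1 CPM in 1 glp-1(ts) library and 6 WT libraries, so the filter selected it through WT. Its tests therefore give no independent support to its direction. Its log2 fold changes of −3.47 on vector (adjusted p = 1.42e-05) and −3.58 on skn-1 RNAi food (adjusted p = 8.93e-06, limma with Benjamini-Hochberg adjustment) both passed the test. The neighbour ift-20, whose exons overlap spe-5 on the other strand, was not found under that name among the genes measured, so its level is not given.

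The gene spe-39 encodes a vesicle trafficking protein that also acts outside sperm. On vector it was at 3.60, 4.03 and 4.13 log2 CPM in glp-1(ts), against 4.95, 4.95 and 4.70 in WT. It fell by 0.95 on vector (adjusted p = 0.00102) and by 1.03 on skn-1 RNAi food (adjusted p = 0.000501, limma with Benjamini-Hochberg adjustment). For spe-6, a casein kinase 1-like gene of sperm meiosis and activation, the libraries on vector were at 0.30, 0.85 and 0.63 in glp-1(ts), against 1.87, 2.01 and 1.41 in WT, and the groups did not overlap. It fell by 1.17 on vector (adjusted p = 0.0213) and by 1.81 on skn-1 RNAi food (adjusted p = 0.00134, limma with Benjamini-Hochberg adjustment). The vector call of spe-6 was lost without replicate 1 or replicate 2 of WT, or without replicate 1 of glp-1(ts), on vector.

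The members spe-15 and spe-41 were well above 1 CPM in all 12 libraries and did not pass the test. For spe-15, which encodes a class VI myosin, levels on vector were 2.80, 2.82 and 2.75 log2 CPM in glp-1(ts), against 2.84, 3.22 and 2.59 in WT. Its log2 fold change was −0.09 with a 95% interval of −0.59 to 0.41, so a change of 1 on the log2 scale in either direction lies outside the interval. For spe-41, also known as trp-3 and encoding a calcium channel that sperm need for fertilization, the log2 fold change was −0.29 with an interval of −0.85 to 0.27 on vector. On skn-1 RNAi food it was −0.0009 with an interval of −0.56 to 0.56.

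The remaining spe genes were near or below 1 CPM. The presenilin family gene spe-4, which acts in the membrane organelles of developing sperm, was at 0.59, 0.27 and 0.61 log2 CPM in glp-1(ts) on skn-1 RNAi food, against −0.33, −3.03 and −1.21 in WT. It was called higher there (log2 fold change 2.01, adjusted p = 0.00804), and on vector it had 0.43 with an adjusted p of 0.523 (limma, Benjamini-Hochberg). Only on that food in glp-1(ts), in all 3 libraries, did spe-4 reach 1 CPM, so the filter on low values selected it through the group in which it was called higher. For spe-29, a small membrane protein gene of sperm activation, the libraries on skn-1 RNAi food were at −0.66, −0.82 and 0.25 in glp-1(ts), against −4.35, −4.35 and −1.61 in WT. It rose by 3.03 on the log2 scale there (adjusted p = 0.00931) and had 2.01 on vector (adjusted p = 0.0653, same test). Since 2 WT libraries were at the lowest value of their library, the size on skn-1 RNAi food depends on where that value is placed, and it ran from 0.65, on the log2(CPM + 1) scale, to 3.94 over the alternatives. The overlapping gene gon-1 on the other strand rose as well, by 2.50 on skn-1 RNAi food and 2.13 on vector, and its part in the spe-29 values was not tested. The paternal-effect gene spe-11, whose sperm-supplied protein is needed by the fertilized egg, had log2 fold changes of 1.20 on vector and 1.08 on skn-1 RNAi food, with intervals that span 0.

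**Figure D3:**
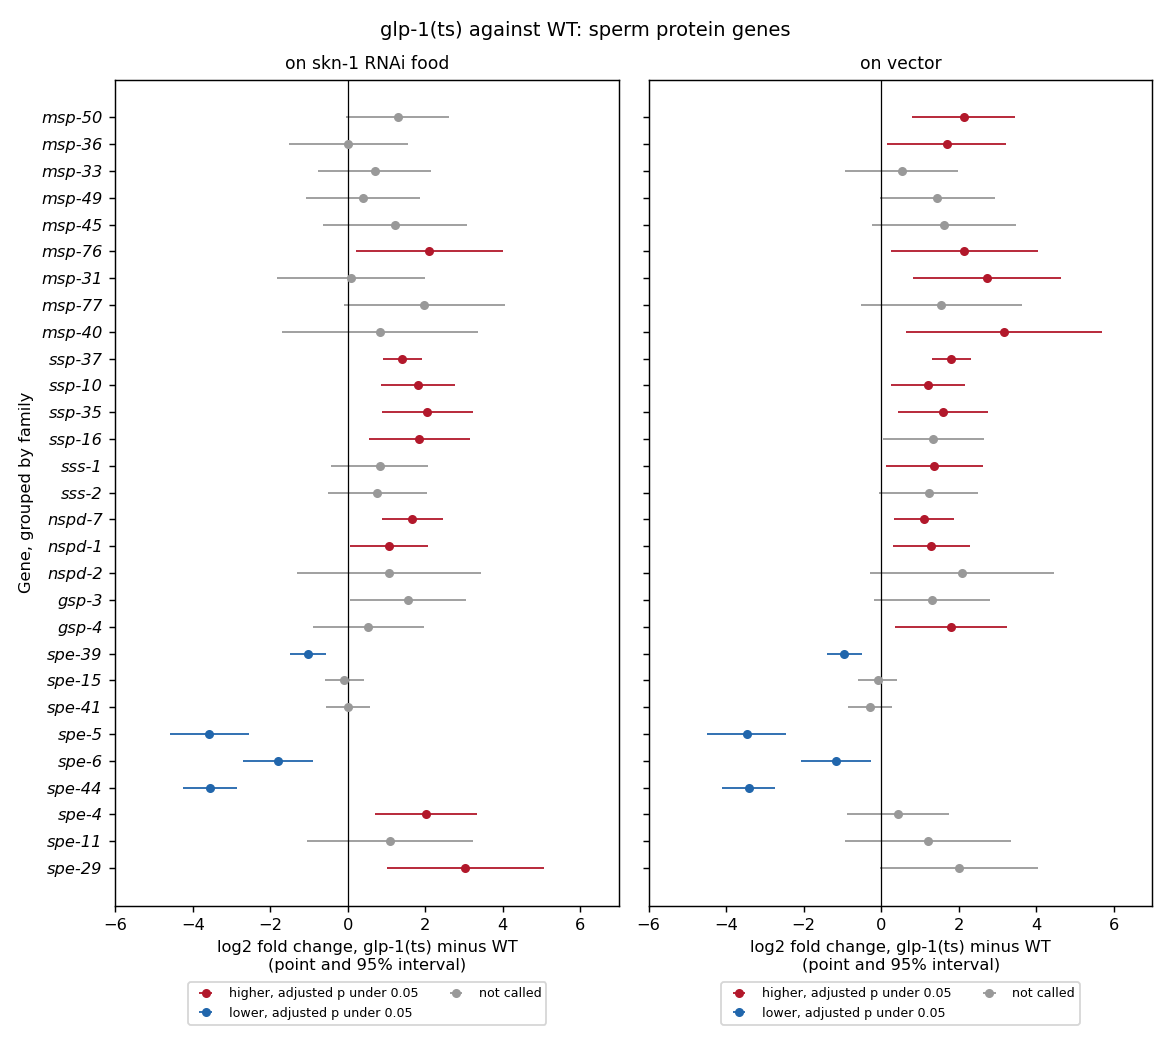
Log2 fold change of glp-1(ts) over WT for each member (rows, by family), on skn-1 RNAi food (left) and on vector (right), with 95% intervals from limma and colour for calls at an adjusted p under 0.05. Every msp, ssp, sss, nspd and gsp point lies right of 0 on both foods, and spe-39, spe-5, spe-6 and spe-44 lie left of 0 on both.

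The same strain comparison on skn-1 RNAi food used 6 other libraries. There 9 members (31.0%) were called higher, beside 41.7% of all genes, and 4 (13.8%) lower, beside 38.1%. The groups did not overlap for 8 higher members (42.2% of all genes) and 4 lower members (38.4% of all genes). Each of the 29 members had the same sign of log2 fold change on both foods, as had 95.8% of all genes. The 6 genes msp-76, nspd-1, nspd-7, ssp-10, ssp-35 and ssp-37 were called higher on both foods (20.7% of members, 36.2% of all genes), and spe-39, spe-44, spe-5 and spe-6 were called lower on both (13.8% of members, 36.5% of all genes). In the msp family only msp-76 was called higher on skn-1 RNAi food (log2 fold change 2.10, adjusted p = 0.0405, limma with Benjamini-Hochberg adjustment). That is 11.1% of the 9 genes, beside 41.7% of all genes. All 9 estimates were positive, and the groups overlapped for all 9 genes. The difference between the foods in the strain effect is the difference of the skn-1 RNAi effects, and it was called for 0 members.

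Replicate 3 of WT stood apart in the members outside the spe family, most clearly on skn-1 RNAi food. On skn-1 RNAi food it was the highest of the 3 WT libraries for 20 of 29 members (69.0%), beside 35.4% of all genes, and replicate 2 was the lowest for 19 (65.5%), beside 34.2% of all genes. In WT on vector replicate 3 was the highest for 13 of 29 members (44.8%), beside 34.4% of all genes. The spe members went the other way on vector, with 7 of 9 lowest in replicate 3. Of the 20 members outside the spe family, 18 were highest in replicate 3 of WT on skn-1 RNAi food, and 12 of 20 on vector. In gsp-3, for example, WT on skn-1 RNAi food was at −1.90, −2.21 and 0.83 log2 CPM, and in msp-49 it was at −1.90, −1.24 and 0.91. For 14 of these 20 members, replicate 3 of WT on skn-1 RNAi food was above the lowest glp-1(ts) library on that food, whereas replicate 1 or 2 of WT was so for 4. Without that library, 14 members in place of 9 were called higher on skn-1 RNAi food, the additional ones being gsp-3, msp-45, msp-50, msp-77 and spe-11. Of these, gsp-3, msp-45, msp-50 and spe-11 reached 1 CPM in at least 2 libraries of glp-1(ts) only. On vector, 5 members were called higher without replicate 2 of WT and 6 without replicate 1 of glp-1(ts), in place of 12. The share of all genes called was not counted in the fits without a library. These counts are therefore no result about the members. Of the members called higher on vector, msp-50, nspd-7 and ssp-37 stayed called whichever single library was left out. Among these, msp-50 reached 1 CPM in 5 glp-1(ts) libraries and 1 WT library, so the filter selected it through glp-1(ts). Its lasting call gives no support to its direction. Without replicate 2 of WT on vector the calls of gsp-4, msp-31, msp-36, msp-40, msp-76, nspd-1, ssp-10 and ssp-35 were lost, and without replicate 1 of glp-1(ts) on vector those of msp-36, msp-40, msp-76, nspd-1, ssp-10 and sss-1. Leaving out replicate 1 of WT on vector lost msp-36, msp-40, msp-76, ssp-10 and sss-1, and leaving out replicate 3 of glp-1(ts) on vector lost gsp-4, msp-36, msp-76 and ssp-35. On skn-1 RNAi food, msp-76, nspd-1 and ssp-16 lost their calls without some libraries, such as replicate 2 of WT or replicate 1 of glp-1(ts) on that food, and the other members called there kept theirs.

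Other gene lists moved with the WT replicates as well. The mean level of the 20 members outside spe was −0.95, −1.98 and 0.43 log2 CPM in WT on skn-1 RNAi food and −1.37, −1.77 and −0.44 in WT on vector. The 23 germline markers were at 6.61, 6.85 and 6.43 in WT on skn-1 RNAi food and at 6.61, 6.78 and 6.48 in WT on vector. The 12 somatic markers were at 5.07, 4.90 and 5.39, and at 5.24, 4.97 and 5.20. In WT, replicate 3 had the highest level of the members outside spe and the lowest germline marker level on both foods, and replicate 2 the reverse. The part of this in the strain comparisons was not tested.

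**Figure D4:**
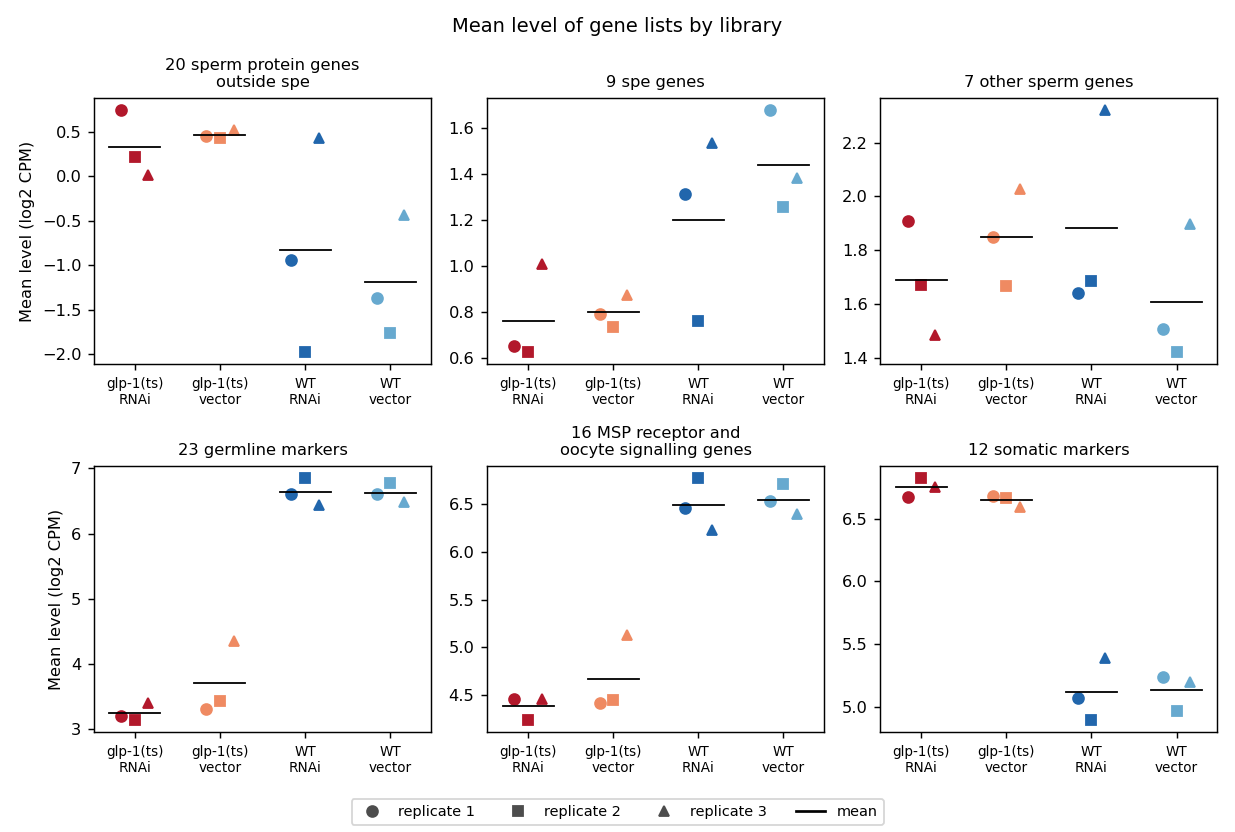
Mean log2 CPM of 6 gene lists (vertical axis, a scale for each panel) in the 4 groups, with a point for each replicate and a line at the mean of 3. The 20 sperm protein genes outside spe have 1 WT point, replicate 3 on skn-1 RNAi food at 0.43, within the glp-1(ts) range of 0.01 to 0.74, and the germline and oocyte lists are lower in every glp-1(ts) library.

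Genes that act with the members were read from lists of the pathway. Of 7 measured sperm genes outside the name rule, 3 rose and 2 fell in glp-1(ts) on vector (median 0.95, all genes 0.27), and 2 rose and 2 fell on skn-1 RNAi food (median 0.07, all genes 0.32). On vector these shares were 42.9% and 28.6%, near the 39.4% and 38.0% of all genes. On skn-1 RNAi food they were 28.6% and 28.6%, beside 41.7% and 38.1% of all genes. At the upper end on vector were msd-4, at 2.31, 1.46 and 1.26 log2 CPM in glp-1(ts), against −0.38, −2.05 and 0.19 in WT, and swm-1, a protease inhibitor gene of sperm activation. At the lower end were cpb-1, a cytoplasmic polyadenylation factor gene that acts in spermatogenesis (log2 fold change −2.75), and wee-1.3 (−2.43). The gene fer-1, which encodes a ferlin needed for fusion of the sperm membranous organelles, had 0.95 and was not called.

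Genes that set the sex of germ cells were mostly lower in glp-1(ts). Of 19 sex determination and switch genes, 16 fell and 1 rose on each food, beside 38.0% to 38.1% of all genes lower and 39.4% to 41.7% higher, with medians of −1.79 on skn-1 RNAi food and −1.64 on vector. They ran from gld-1, a translational repressor that permits hermaphrodite spermatogenesis (−3.90 on vector), to tra-3, a calpain gene of the sex determination pathway (0.79 on vector). The spermatogenesis-promoting genes fog-1, fog-2 and fem-3 fell by 1.64, 3.01 and 2.80 on vector. Of 16 genes of MSP reception and oocyte signalling, 13 fell and 3 rose on each food, beside the same shares of all genes, with medians of −3.34 on skn-1 RNAi food and −2.79 on vector. Among those that fell was vab-1, the Eph receptor that binds MSP (−1.98 on vector), and the 3 that rose were acy-4, ceh-18 and gsa-1, which act in the gonadal sheath cells.

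The next comparison asked whether skn-1 RNAi food changed these genes. In WT, 0 members were called in either direction by limma at an adjusted p under 0.05, beside 0.0794% of all genes higher and 0.0953% lower. In glp-1(ts), 0 members were called, beside 0.0556% of all genes higher and 0.302% lower. At an unadjusted p under 0.05, limma gave 0 members in either strain, beside 4.12% of all genes higher and 6.34% lower in glp-1(ts) and 2.06% higher and 3.90% lower in WT, and no alternative setting gave a call. The difference of the effects between the strains was called for 0 members and for 0% of all genes, with 0 members at an unadjusted p under 0.05, beside 2.88% of all genes higher and 3.03% lower.

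Intervals were narrower for the higher genes. In WT, spe-15 was at 2.70, 3.42 and 2.92 log2 CPM on skn-1 RNAi food, against 2.84, 3.22 and 2.59 on vector, and its log2 fold change of 0.13 had a 95% interval of −0.37 to 0.63. For ssp-37 it was −0.05 with an interval of −0.56 to 0.45 in WT and −0.47 with an interval of −0.97 to 0.04 in glp-1(ts). The spe-44 estimates were −0.06 in WT and −0.20 in glp-1(ts), with intervals of −0.75 to 0.63 and −0.89 to 0.49. Changes of 1 on the log2 scale lie outside these intervals. In glp-1(ts), however, spe-44 was below 1 CPM in every library, and the fit used a spread shared by all 4 groups. Its interval in glp-1(ts) may therefore be too narrow, and no change is excluded by it.

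The intervals of the msp genes were wider. In WT, msp-40 was at −1.31, −4.35 and 0.57 on skn-1 RNAi food, against −4.35, −4.35 and −1.05 on vector, a log2 fold change of 1.55 with an interval of −0.97 to 4.07. In glp-1(ts), msp-31 was at −1.34, −1.21 and −0.50 in the libraries labelled skn-1 RNAi, against −0.02, 0.20 and 0.45 on vector. These groups did not overlap, but the log2 fold change of −1.22 had an interval of −3.13 to 0.68 and an adjusted p of 0.673 (limma, Benjamini-Hochberg). The estimates of the 9 msp genes had a median of 0.92 in WT, with 7 positive, and of −0.15 in glp-1(ts), with 3 positive, beside medians of 0.006 and 0.0067 over all genes. The WT values include the high replicate 3 on skn-1 RNAi food.

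**Figure D5:**
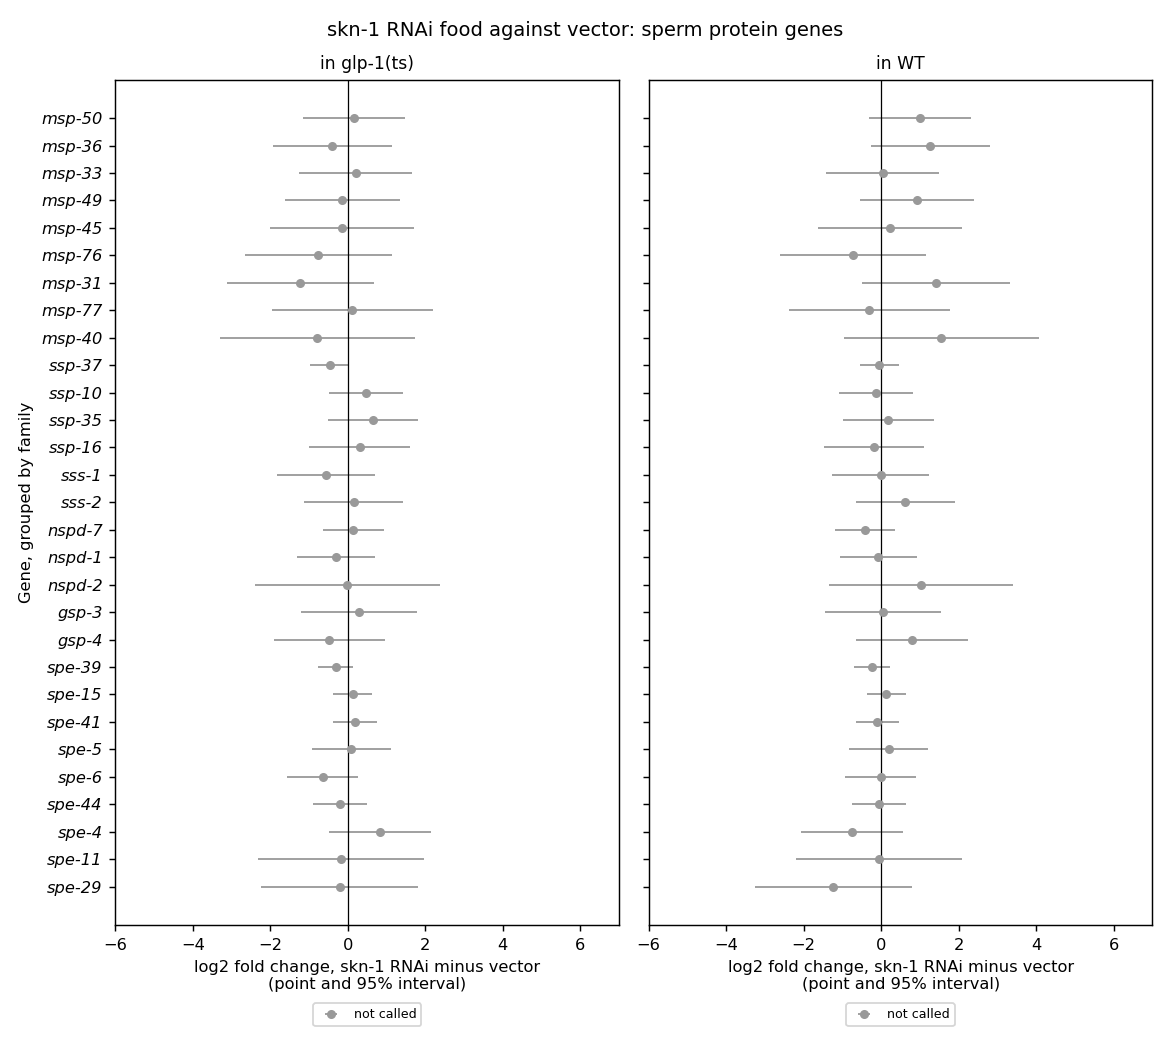
Log2 fold change of skn-1 RNAi food over vector for each member (rows, by family), in glp-1(ts) (left) and in WT (right), with 95% intervals from limma. Every interval crosses 0 in both strains, and the intervals of spe-15, spe-41, spe-39 and ssp-37 are the narrow ones.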

How the data were processed

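The deposited table holds log2 CPM values of 12595 genes in 12 libraries. Per the study's methods, the authors aligned reads to WBcel235 with STAR, counted them with featureCounts, kept genes with at least 1 CPM in at least 2 samples, and applied quantile normalization in voom. Strand and multi-mapping settings, and library sizes, are not given in the sources used here. The 12 sample files hold the same values. The authors' 4 columns of group means and 16 columns of comparisons (fold changes and p-values) were not used.

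The 29 members and all gene lists were chosen with earlier results of these data known. limma 3.58.1 (R 4.3.3) fitted group means to all 12 libraries with an intensity trend, and Benjamini-Hochberg adjustment over 12595 genes, with calls at an adjusted p under 0.05 (8 residual degrees of freedom before moderation). No count test was possible on normalized log2 values. Genes named were gsp-3, gsp-4, the sss genes, the 5 highest by mean level in each other family, and the 5 largest rises and falls among called members. A gene of the text outside that rule was chosen after its values were seen.

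Replicate numbers are biological replicate numbers in the labels. Same-numbered vector and RNAi libraries deviated together within each strain (correlations of residuals 0.106, 0.314 and 0.247 in WT, and 0.149, 0.337 and 0.233 in glp-1(ts)), so the numbers pair libraries within a strain. Between strains such correlations were also positive, at 0.035, 0.161 and 0.119 on vector and 0.088, 0.163 and 0.040 on skn-1 RNAi food. Most correlations between different numbers were negative there. Whether the numbers pair across strains is not settled by these values, and the main fit had no replicate block. With a block, 4 calls of members changed on vector and 0 on skn-1 RNAi food. Nothing says which replicates were grown separately, so p-values measure the spread between these samples. Gene coordinates and lengths come from the Ensembl annotation of WBcel235. Sequences were not used here.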

Additional observations from a re-analysis of the deposited data

How the results depend on the processing

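Most members lie near 1 CPM, which limits every count. On vector, 12 members were called higher and 4 lower in glp-1(ts). Restricting the fit to genes averaging 1 CPM or more (13 members remaining) gave 6 higher, restricting it to 4 CPM or more (4 remaining) gave 1 higher and 1 lower, and at an adjusted p under 0.01 there were 2 higher. When any single library was left out, 5 to 16 were called higher and 3 to 4 lower. On skn-1 RNAi food, 9 were called higher and 4 lower, and these became 4 higher at 1 CPM and 1 higher and 1 lower at 4 CPM. Leaving out single libraries gave 6 to 14 higher and 4 lower there. With both WT libraries numbered 3 left out, an alternative chosen after seeing the data, 17 were called higher on vector and 14 on skn-1 RNAi food. Many of these entered the table through glp-1(ts) only. Shares of all genes called were not counted for the alternative settings, so their counts are no result about the members. Fewer members were tested under the filters, but nspd-1 was still tested at 1 CPM and lost its call on skn-1 RNAi food, and the cause of these changes was not tested. No member reversed its direction among those called.

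Called under every alternative run at 0.05 were 3 of 12 on vector and 6 of 9 on skn-1 RNAi food among those higher, and 3 of 4 and 4 of 4 among those lower. Fitting a replicate block gave 14 higher on vector and 9 on skn-1 RNAi food, with sss-1 no longer called on vector (adjusted p = 0.0545, limma with Benjamini-Hochberg adjustment). For skn-1 RNAi, where the numbers pair libraries, the block within each strain gave 0 calls, also in all other settings. Centring on the reference genes (cdc-42, pmp-3 and Y45F10D.4) or on the median left member medians at 1.29 and 1.36 on vector. Of the reference genes, Y45F10D.4 was itself called higher in glp-1(ts) on vector (log2 fold change 0.64) and pmp-3 lower (−0.35), while cdc-42 was not called (−0.13). They are therefore no constant baseline. The planned sum over msp genes unique in short windows was not run, since no genome was used here.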
